A study of Mus musculus with 6 samples.

Results

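Label and read levels were followed in nuclear RNA for 10 genes of the integrated stress response. These were Atf4, Atf3, Ddit3, Ddit4, Trib3, Chac1, Asns, Sesn2, Vldlr and Ppp1r15a. They were taken by gene symbol, and all 10 were found among the 23281 genes of the deposited table. They were measured in mouse embryonic stem cells, female and of the 129S X Cast hybrid background. On their 129S allele a TetOn promoter stood in place of the promoter of endogenous Xist, and a Bgl stem-loop had been added to the 3' end of Xist. The titles of all 6 libraries also carry the name BglHalo. All cultures received 1 µg/ml doxycycline for 17.5 to 20 h and then 500 µM 4-thiouridine (4sU) with doxycycline for 4 h. They were collected after 0, 30, 60, 90, 120 or 150 min of washout, which meant doxycycline with 50 mM uridine for every time but 0 min. Each washout time had 1 library of nuclear RNA, so there were no replicates and no culture without 4sU or doxycycline. The labels name no stress treatment, and activity of the stress response was not measured. In SLAM-seq, incorporated 4sU is read as C in place of T, a T>C conversion, and the decline of converted reads after washout measures how long labelled RNA stays in the nucleus.

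In the integrated stress response, kinases that sense amino acid shortage, misfolded protein, double-stranded RNA or haem shortage phosphorylate the translation factor eIF2 and slow protein synthesis. Translation of Atf4 mRNA goes up under these conditions, and the ATF4 transcription factor then switches on genes for amino acid supply, growth control and cell death. Some of these target genes, such as Ppp1r15a, feed back and end the response. ATF4 binds a composite C/EBP-ATF element in many of its target promoters.

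The C/EBP-ATF element was searched in RefSeq promoter windows (build GRCm38.p6) that run from 250 bases before to 50 bases after each annotated start, because ATF4 binds it in many of its targets. The motif was spelled TGATGNAA and sought on both strands. It was present for 5 of the 10 genes, Atf3, Trib3, Chac1, Asns and Vldlr, against 4.51% of all 27025 genes with a window (3.97% of all 32851 windows). The stricter spelling TGATGCAA, which is contained in the first, was present for 3 of the 10 genes and for 1.03% of all genes. The stretches around the matches are given 5′ to 3′ on the gene's strand with the match in capitals. Where the motif lies on the opposite strand, the capitals hold its reverse complement.
Atf3, chr1:191183376-191183503, minus strand: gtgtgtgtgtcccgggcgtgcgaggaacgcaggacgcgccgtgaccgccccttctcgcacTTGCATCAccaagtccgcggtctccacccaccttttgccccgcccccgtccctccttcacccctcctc
Chac1, chr2:119350992-119351116, plus strand: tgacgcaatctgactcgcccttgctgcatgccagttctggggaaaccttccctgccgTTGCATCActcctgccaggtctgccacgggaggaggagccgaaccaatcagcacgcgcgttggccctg
Vldlr, second of its windows, chr19:27216770-27216887, plus strand: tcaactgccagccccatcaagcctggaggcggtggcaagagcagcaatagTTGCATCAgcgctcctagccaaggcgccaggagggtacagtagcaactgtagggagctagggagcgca
Asns, chr6:7693185-7693292, minus strand: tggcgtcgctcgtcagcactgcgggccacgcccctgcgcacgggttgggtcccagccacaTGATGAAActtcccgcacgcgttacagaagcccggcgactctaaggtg
Trib3, chr2:152344036-152344106, minus strand: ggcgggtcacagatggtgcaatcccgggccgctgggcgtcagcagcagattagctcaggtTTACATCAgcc
The match began 110 bases before the start in Atf3, 193 before it in Chac1, 200 before it in Vldlr, 23 before it in Asns and 14 after it in Trib3. Atf4, Ddit3, Ddit4, Sesn2 and Ppp1r15a had no match in these windows. That says only that these letters are not in these windows.

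Libraries held 18558073 to 28535162 reads. Over all genes, the T>C rate was 4.05, 2.69, 4.11, 2.57, 1.55 and 1.17% from 0 to 150 min, highest in the 60 min library. In 8 of the 10 genes the labelled share was likewise higher at 60 than at 30 min, against 47.1% of the 11462 genes tested. The times were read from numbers in the column names, so an exchange of the 30 and 60 min libraries is possible and was not tested. Calls with the 2 times exchanged are given where their count moved by over 1.5 times. Of 8 embryonic stem cell markers, all were detected in every library, with a summed level of 2558 to 3042 CPM (TMM-scaled). Of 10 fibroblast feeder markers, 9 were also detected in every library, with 897 to 1332 CPM in sum, although a pre-plating step was meant to discard feeders. Lum was the exception and had no reads in at least 1 library. The feeder markers carried little label (median share 9.86% at 0 min), and their part in the values below was not tested.

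Label was lost from 9 of the 10 stress response RNAs during the washout. The labelled share is the authors' posterior mean of the fraction of a gene's reads that carry label. Its decline was called with limma on the natural log of the share at a Benjamini-Hochberg adjusted p under 0.05 over 11462 genes. Of all genes tested, 52.3% fell by this rule and 1.19% rose. The median slope of the natural log of the share was -0.54 per h for the 10 genes, against -0.25 per h over all genes tested. In these bulk samples, fewer cells of a type and less RNA per cell cannot be told apart. With the 6 libraries weighted by the posterior range of each share, 1 of the 10 genes fell (Ppp1r15a) and 2949 of all 11462 genes did.

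**Figure D1:**
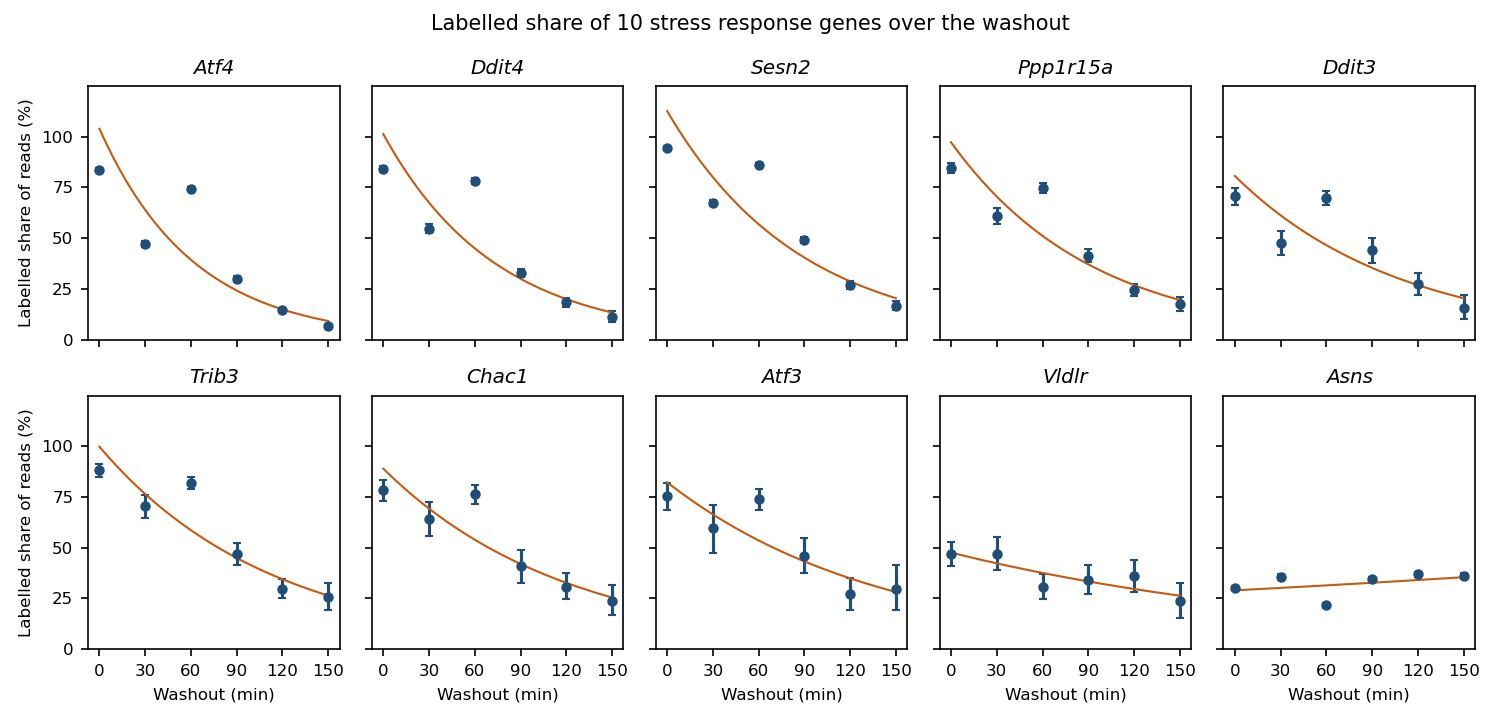
Labelled share of reads (%) against washout time (min) for the 10 genes, ordered from the fastest to the slowest decline; points are single libraries, bars span the 5% to 95% posterior range and curves are the least-squares line on the log scale. Atf4 stands at 83.6% at 0 min and 6.81% at 150 min, Asns at 30.2% and 35.9%, and the 60 min point lies above the 30 min point in all but Vldlr and Asns.

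Atf4 (ENSMUSG00000042406, chromosome 15, 80255184 to 80257541, plus strand, mm10) encodes the bZIP transcription factor at the centre of the response. It had the shortest half-life of the group by share, a measure that takes total levels as constant. On labelled abundance, total CPM times share, the slope was -0.98 ± 0.16 per h for Atf4. It was steeper for Ddit4 (-1.17 ± 0.19 per h) and Sesn2 (-1.09 ± 0.16 per h), and these differences were not tested. The labelled share of Atf4 was 83.6% at 0 min (posterior range 82.5 to 84.6), then 47.2, 74.4, 29.9, 14.4 and 6.81% (5.90 to 7.78 in the last library). The share was lower at 90, 120 and 150 min than at any earlier time. The decay rate was 0.972 ± 0.131 per h (limma's moderated SE, 6 libraries; limma adjusted p = 5.17e-05). As a half-life this is 42.8 min, and 1 SE to either side spans 37.7 to 49.5 min. The raw T>C rate was 8.23% at 0 min (Wilson 95% interval 8.06 to 8.41), then 2.94, 8.57, 2.01, 0.818 and 0.390% (0.344 to 0.443 in the last library). These intervals cover counting error only. The genes whose labelled shares ran closest to those of Atf4, by root mean square distance of the natural log over the 6 libraries among 7535 other genes that averaged 500 reads or more, were Zfp157 (0.0526), Zrsr1 (0.0527) and Etv3 (0.0536).

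Atf3 and Ddit3 encode stress-induced bZIP factors that act after ATF4, and DDIT3 (CHOP) is known for promoting cell death under lasting stress. The labelled share of Ddit3 (ENSMUSG00000025408, chromosome 10, 127290774 to 127296288, plus strand) was 70.7, 47.5, 69.8, 43.9, 27.3 and 15.8% from 0 to 150 min, and the half-life 75.6 min (1 SE range 62.8 to 94.97; limma adjusted p = 0.000698). Mars lies on the opposite strand across Ddit3. Reads of the pair may be mixed, as the use of strand in the counting was not given in the sources used here. Mars was 16.8% labelled at 0 min and 20.7% at 150 min, below Ddit3 in the first library and above it in the last. The annotation also holds a second gene ID with the symbol Ddit3 that overlaps on the same strand, while the table lists Ddit3 once. Atf3 (ENSMUSG00000026628, chromosome 1, 191170296 to 191218039, minus strand) had 65 to 218 reads per library, and its share was 75.7, 59.7, 74.0, 46.1, 27.1 and 29.8%. By share its half-life came to 97.0 min (1 SE range 78.5 to 127; limma adjusted p = 0.00202). The 150 min value of Atf3 rested on 10 conversions in 1242 covered T positions, a rate of 0.805% (0.438 to 1.48). Gm24748, which is not among the genes of the deposited table, overlaps Atf3 on the opposite strand.

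The next shortest half-lives by share were those of Ddit4, Sesn2 and Ppp1r15a. DDIT4 (REDD1) and SESN2 both hold back the growth kinase mTORC1, and both genes also respond to p53. Ddit4 (ENSMUSG00000020108, chromosome 10, 59949669 to 59951834, minus strand) had labelled shares of 84.1, 54.7, 78.3, 33.0, 18.3 and 11.2% and a 51.2 min half-life (44.8 to 59.8; limma adjusted p = 6.45e-05). Gm12981, which is not among the genes of the deposited table, overlaps Sesn2 on the same strand. Sesn2 (ENSMUSG00000028893, chromosome 4, 132492032 to 132510501, minus strand) had the highest share at 0 min, 94.4% (93.5 to 95.2), followed by 67.5, 86.1, 49.0, 27.0 and 16.7%. The half-life came to 60.8 min (52.5 to 72.4; limma adjusted p = 0.000115). Ppp1r15a (GADD34), the inducible subunit that brings a phosphatase to eIF2 and ends the block of translation, had shares of 84.7, 61.1, 74.8, 41.4, 24.4 and 17.4% and a 64.7 min half-life (55.8 to 76.9; limma adjusted p = 0.000114). It lies on chromosome 7, 45522916 to 45526268, minus strand (ENSMUSG00000040435), with Tulp2 on the opposite strand.

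Trib3, a pseudokinase that binds ATF4 and AKT, and Chac1, an enzyme that breaks down glutathione, came next in order. Trib3 (ENSMUSG00000032715, chromosome 2, 152337422 to 152344032, minus strand) had shares of 88.4, 70.4, 81.9, 46.9, 29.8 and 25.7% and a 78.2 min half-life (limma adjusted p = 0.000317). Chac1 (ENSMUSG00000027313, chromosome 2, 119351229 to 119354381, plus strand) had shares of 78.4, 64.2, 76.5, 40.8, 30.8 and 23.9% and an 83.0 min half-life (limma adjusted p = 0.000492). Their values at 120 and 150 min lay below all earlier ones, as they did for Atf4, Atf3, Ddit3, Ddit4, Sesn2 and Ppp1r15a.

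Vldlr and Asns were at the slow end. Vldlr (ENSMUSG00000024924, chromosome 19, 27216484 to 27254231, plus strand), a lipoprotein receptor gene induced by ATF4, was 46.9% labelled at 0 min, then 47.1, 30.7, 34.2, 35.9 and 23.6%, from 81 to 170 reads per library. Its decline, with a 176 min half-life (1 SE range 126 to 290.2), passed narrowly (limma adjusted p = 0.0433). It missed the threshold without the 0, 30, 90, 120 or 150 min library (0.14, 0.155, 0.0517, 0.0579 and 0.326) and with the 30 and 60 min times exchanged (0.0711). Asns (ENSMUSG00000029752, chromosome 6, 7675169 to 7693254, minus strand), the enzyme that makes asparagine and a standard ATF4 target, was 30.2% labelled at 0 min (29.4 to 31.1), then 35.7, 21.97, 34.5, 36.9 and 35.9% (34.4 to 37.5 at 150 min). No decline of its share was detected (slope 0.081 ± 0.099 per h, limma adjusted p = 0.522). Of the 10 genes it had the lowest share at 0 min and the highest at 150 min. Its raw T>C rate was 2.73, 2.24, 2.19, 2.30, 1.79 and 1.45%, with no called slope on this measure (-0.22 ± 0.16 per h, limma adjusted p = 0.214).

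By the raw T>C rate the same count was reached. All but Asns fell, 9 of 10 genes, against 66.9% of the 11459 genes tested, and 0.0% of all genes rose. Half-lives on this measure were shorter, from 35.4 min for Atf4 and 38.7 min for Ddit4 to 56.5 min for Chac1 and 68.5 min for Vldlr. The order among the middle genes changed with the measure, since Atf3 had 97.0 min by share and 47.8 min by T>C rate.

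The rates were also set against the transcriptome of the same library, by taking the median log share of all genes in each library off every value. The median share over all genes went down in the order of the times (46.75, 45.81, 44.54, 39.27, 27.68 and 21.14%), so the higher 60 min values of 8 of the 10 genes remain in these slopes. Of the 10 genes, 6 were called as falling faster than the library median (Atf4, Ddit4, Sesn2, Ppp1r15a, Ddit3 and Trib3), against 25.2% of all genes. A slope above the median was called for 1 (Asns), against 36.9%. The slope relative to the median was -0.65 ± 0.12 per h for Atf4 (limma adjusted p = 0.00679) and 0.40 ± 0.11 per h for Asns (limma adjusted p = 0.0165). Chac1 (-0.18 ± 0.07 per h, limma adjusted p = 0.0562), Atf3 (limma adjusted p = 0.269) and Vldlr (limma adjusted p = 0.44) did not pass. Without the 150 min library 0 of the 10 genes passed, and neither did any other gene (0 of 11560, of which 4896 had an unadjusted p under 0.05 by limma).

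Differences between the 10 genes were tested for all 45 pairs by exact two-sided permutation of the 720 orders of the times on the log ratio of their shares. No pair passed after Benjamini-Hochberg adjustment over the 45 pairs (smallest adjusted p = 0.0682), and 26 pairs had an unadjusted p under 0.05. With the 30 and 60 min times exchanged, 32 pairs passed. Along the order of half-lives, Atf4 differed from the next gene, Ddit4, by -0.16 ± 0.05 per h (exact permutation p = 0.0306, adjusted p = 0.0682), and Vldlr from Asns by -0.32 ± 0.06 per h (exact permutation p = 0.00833, adjusted p = 0.0682). Ddit4 differed from Sesn2 by -0.13 ± 0.04 per h (exact permutation p = 0.0583). Between Sesn2 and Vldlr each gene lay within -0.018 to -0.19 per h of the next, with exact permutation p from 0.197 to 0.853. As no pair passed after adjustment, the order of the 10 genes is not settled by these 6 libraries. The 5 genes with a C/EBP-ATF match near their start, given above with their sequences, were the 5 with the slowest decline by share. The border between genes with and without a match fell between Trib3 and Ddit3. Ddit3 differed from Trib3 by only -0.018 ± 0.09 per h (exact permutation p = 0.853). The decline of all genes with a match was not examined. By T>C rate the half-life of Atf3 (47.8 min) and that of Trib3 (49.3 min) were shorter than those of Ppp1r15a (49.7 min) and Ddit3 (52.7 min), which had no match, so the 2 sets overlapped. This was noticed after the values were seen and was not tested.

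The label taken up before the washout gave a second view of turnover. If levels were at steady state, the share reached after 4 h gives a half-life, here with bounds from the posterior range. It was 57.7 min for Sesn2 (54.7 to 60.9), 77.3 min for Trib3, 88.6 min for Ppp1r15a (81.4 to 96.2), 90.4 min for Ddit4 (85.4 to 95.8) and 92.1 min for Atf4 (88.8 to 95.4). Chac1 followed with 109 min, Atf3 with 118 min, Ddit3 with 136 min, Vldlr with 262 min and Asns with 462 min (446 to 478). Vldlr and Asns were the slowest by uptake as they were in the washout. Atf4 was first by share in the washout but above the bounds of Sesn2 and Trib3 (67.8 to 87.8) by uptake. The bounds of Ppp1r15a, Ddit4 and Atf4 overlapped. The 0 min library enters both estimates.

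Total reads show how much RNA was present while the label was replaced. Per length, in RPKM from TMM-scaled reads and the deposited gene length, Atf4 had 112 ± 9.5 and Asns 105 ± 11.9 (SD over 6 libraries of different times), and their ranges overlapped. Sesn2 had 42.2 ± 15.2 and Ddit4 39.8 ± 15.04 RPKM. Ddit3 had 16.6 ± 5.84 RPKM and Ppp1r15a 13.5 ± 1.94 RPKM, again with overlapping ranges. Lower levels were found for Trib3 (7.28 ± 1.92 RPKM), Chac1 (4.97 ± 0.966 RPKM), Atf3 (2.55 ± 0.883 RPKM) and Vldlr (0.640 ± 0.076 RPKM).

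The total level of Atf4 had no trend that passed the test, while labelled reads gave way to unlabelled ones. Atf4 stood at 191, 178, 224, 187, 194 and 182 CPM from 0 to 150 min. The part that was labelled, total CPM times share, was 160 CPM at 0 min and 12.4 CPM at 150 min. The unlabelled part was 31.4 CPM at 0 min and 170 CPM at 150 min, 5.41-fold higher. Ppp1r15a showed the same exchange on a smaller scale, with 33.7 CPM labelled and 6.09 CPM unlabelled at 0 min, and 5.30 CPM labelled and 25.2 CPM unlabelled at 150 min. For Asns the labelled part was 68.0 CPM at 0 min and 68.6 CPM at 150 min, with extremes of 54.6 CPM (60 min) and 76.4 CPM (30 min). Its unlabelled part was 157 CPM at 0 min and 122 CPM at 150 min, with extremes of 194 CPM (60 min) and 115 CPM (120 min). CPM is relative to the other genes of a library and gives no absolute amount.

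**Figure D2:**
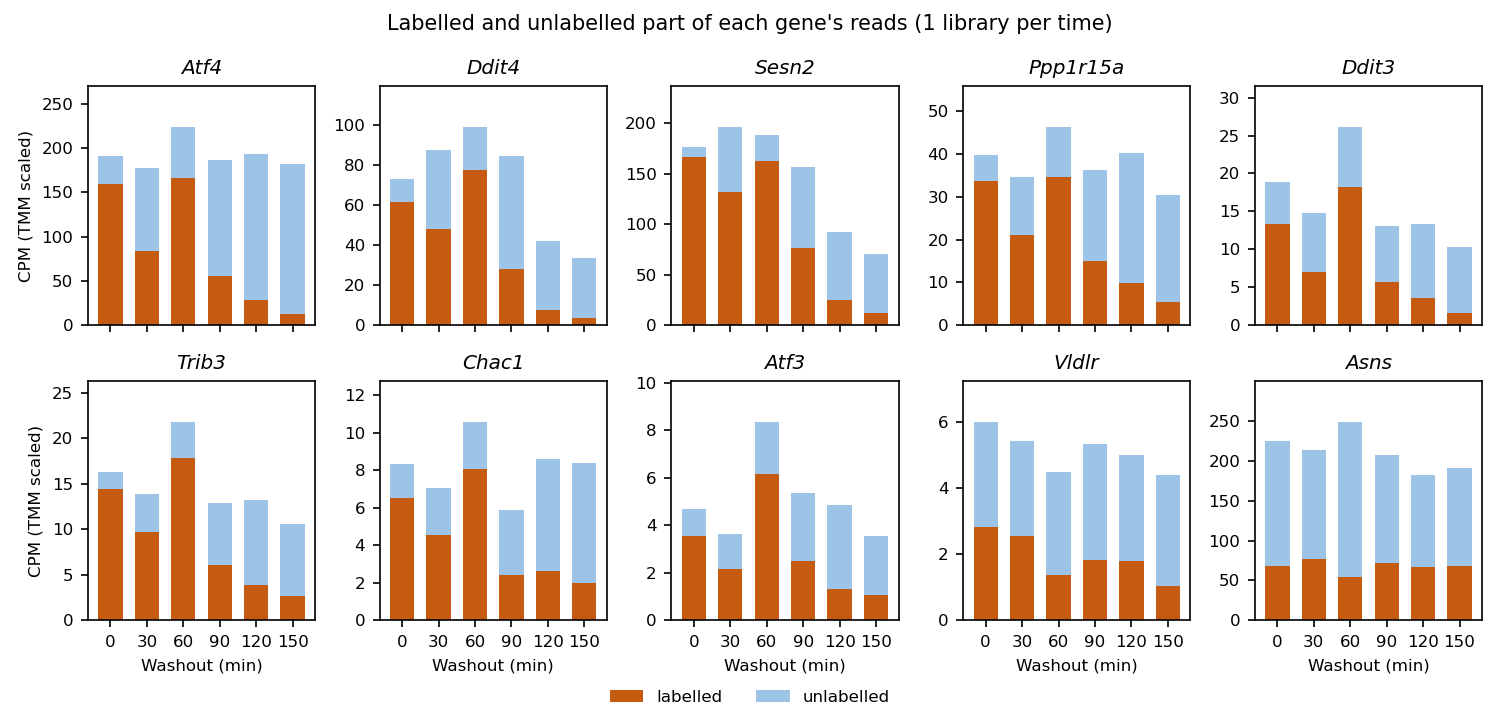
Labelled (dark) and unlabelled (light) part of the reads of each gene, in CPM with TMM scaling, against washout time (min); each bar is 1 library and each panel has its own axis from 0. Total Atf4 stays between 178 and 224 CPM while its unlabelled part grows, and total Sesn2 is 176 CPM at 0 min and 70.2 CPM at 150 min.

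Sesn2 and Ddit4 had their lowest total levels late in the washout. Sesn2 had 176, 196, 188, 157, 92.2 and 70.2 CPM, a slope of -0.59 ± 0.12 log2 per h (edgeR). Ddit4 had 73.3, 87.4, 98.9, 84.3, 42.0 and 33.3 CPM, a slope of -0.52 ± 0.16 log2 per h. In both genes the 120 and 150 min libraries lay below the other 4. The labelled part of Sesn2 was 166 CPM at 0 min and 11.7 CPM at 150 min, and its unlabelled part 9.89 CPM at 0 min and 58.4 CPM at 150 min. For Ddit4 the labelled part was 61.6 CPM at 0 min and 3.75 CPM at 150 min, and the unlabelled part 11.6 CPM at 0 min and 29.6 CPM at 150 min. Ddit3 had 18.9, 14.8, 26.1, 13.0, 13.3 and 10.3 CPM, with the 60 min library highest and the 150 min library lowest. Trib3 had 16.3, 13.8, 21.8, 12.9, 13.2 and 10.6 CPM, with the same libraries highest and lowest.

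None of these differences in total reads passed edgeR's quasi-likelihood test after Benjamini-Hochberg adjustment, for any of the 10 genes or for any of the 15325 genes tested (0.0% fell and 0.0% rose). The adjusted p was 0.0896 for Sesn2, 0.121 for Ddit4, 0.184 for Ddit3 and 0.249 for Trib3. An unadjusted p under 0.05 was found for 3 of the 10 genes (Sesn2, Ddit4 and Ddit3) and for 3384 of all genes (22.1%). DESeq2 called Sesn2 (adjusted p = 5.44e-05) and none of the other 9, against 2.25% of all genes that fell and 1.97% that rose. With the 30 and 60 min times exchanged edgeR called 4 of the 10 (Sesn2, Ddit4, Ddit3 and Trib3), against 8.54% of all genes that fell and 10.5% that rose. Without the 0 min library it called Sesn2 and Ddit4, while 35 of 15249 genes fell and 1 rose. Without the 60 min library it called Sesn2 and Ddit3, while 643 of 15215 genes fell and 778 rose. The slope was below 0 for all 10 genes, against 50.9% of all genes, but that of Chac1 was above 0 with the size factors of DESeq2.

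**Figure D3:**
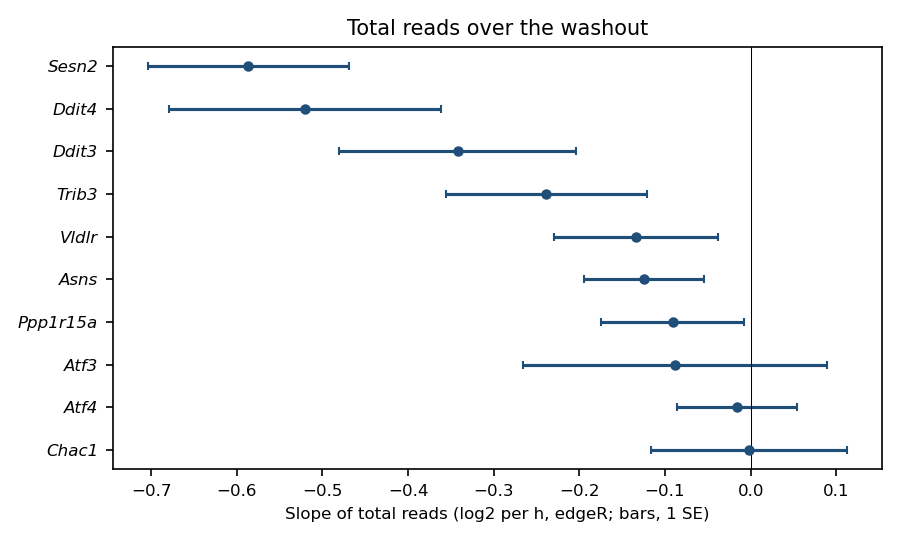
Slope of total reads over the washout (log2 per h, edgeR with TMM) for the 10 genes; points are estimates over 6 libraries and bars 1 SE. Sesn2 lies at -0.59, Ddit4 at -0.52, and Atf4 and Chac1 at or near 0.

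The wider pathway was described from 7 lists of genes upstream of ATF4, beside it and among its targets. Among the 4 eIF2 kinases, 1 fell by share, against 52.3% of all genes, and 2 fell by T>C rate, against 66.9%. By share this was Eif2ak3 (PERK, the kinase of the endoplasmic reticulum), with 86.3% at 0 min and 13.7% at 150 min (half-life 56.3 min, limma adjusted p = 9.11e-05). Eif2ak1 (HRI), Eif2ak2 (PKR) and Eif2ak4 (GCN2, the sensor of amino acid shortage) did not pass by share, and Eif2ak4 had 28.2% at 0 min and 30.6% at 150 min. Of 10 genes for eIF2, its exchange factor eIF2B and its phosphatase, 2 fell by share, against 52.3% of all genes. By T>C rate 4 of the 10 fell, against 66.9%. Those that fell by share were Ppp1r15b, the constitutive counterpart of Ppp1r15a, with a half-life of 45.3 min (91.5% at 0 min and 9.48% at 150 min), and Eif2b2 with 184 min. The other 8 did not pass by share, among them Eif2s1, the subunit that the kinases phosphorylate, with 27.4% at 0 min and 26.2% at 150 min. In total reads the slopes of this list ran from -0.08 ± 0.07 log2 per h for Eif2s3x to 0.02 ± 0.06 for Eif2b4, and none passed edgeR or DESeq2.

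Of 8 bZIP genes that act with or beside ATF4, 7 lost label by share, against 52.3% of all genes, and Atf5 did not pass (limma adjusted p = 0.0575). By T>C rate all 8 fell, against 66.9% of all genes, with Atf5 among them (limma adjusted p = 0.0116). The fastest were Cebpd (49.4 min) and Jun (49.5 min), and the slowest that fell were Nfe2l2 (NRF2, 63.6 min) and Jdp2 (86.5 min). The median decay rate was 0.541 per h for the 10 stress response genes and 0.711 per h for this list. In total reads, Cebpg had the largest positive slope of the list (0.25 ± 0.07 log2 per h, edgeR adjusted p = 0.104, DESeq2 adjusted p = 0.0357) and Fos the most negative (-0.80 ± 0.28 log2 per h, edgeR adjusted p = 0.143, DESeq2 adjusted p = 0.134).

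ATF4 targets in amino acid transport were mixed. Of 8 tested, 5 fell, close to the 52.3% of all genes, led by Slc38a2 (45.1 min), a carrier of neutral amino acids, and Slc3a2 (70.6 min), the heavy chain of amino acid exchangers, with Slc6a9 (136 min) and Slc7a1 (157 min) the slowest. Slc7a5, the light chain that pairs with Slc3a2, had a share of 32.9% at 0 min and 39.1% at 150 min and did not pass (limma adjusted p = 0.478). By T>C rate 5 of the 8 fell, against 66.9% of all genes. Slc7a11 was below the read minimum. In total reads, Slc1a4, a carrier of small neutral amino acids, had the most negative slope (-0.32 ± 0.07 log2 per h, edgeR adjusted p = 0.0896, DESeq2 adjusted p = 0.011) and Slc38a2 the most positive (0.30 ± 0.12 log2 per h, edgeR adjusted p = 0.182). DESeq2 also called Slc1a5 (adjusted p = 0.0221).

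Genes for enzymes of amino acid supply, the class to which Asns belongs, mostly did not pass. Of 12 genes of serine, one-carbon and amino acid synthesis, 1 fell by share, Gpt2 (117 min), against 52.3% of all genes. By T>C rate 3 of these 12 fell, against 66.9%. The median of their shares stood at 20.1% in the first library and 18.8% in the last. Of 12 aminoacyl-tRNA synthetase genes 0 fell by share, against the same 52.3%, and none had an unadjusted p under 0.05 by limma. By T>C rate 2 of them fell, Aars and Cars, against 66.9%. For the synthetases the median of the shares was 23.1% in the first library and 23.3% in the last. Relative to the library median, 9 of the synthesis genes and 11 of the synthetase genes were called above it, as Asns was, against 36.9% of all genes. In total reads all 12 genes of either list had a negative slope, against 50.9% of all genes, and 0 passed edgeR. Slopes ran from -0.45 ± 0.10 log2 per h for Pycr1 (edgeR adjusted p = 0.0939) to -0.07 ± 0.08 for Aldh1l2 in the synthesis genes. Among the synthetases they ran from -0.29 ± 0.08 log2 per h for Cars (edgeR adjusted p = 0.103) to -0.12 ± 0.07 for Wars. DESeq2 called Pycr1 (adjusted p = 0.00698), Aldh18a1 (0.0131), Cbs (0.0491) and Cars (0.017), all lower later in the washout.

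Of the 10 tested genes among 12 other stress targets, 6 lost label by share, close to the 52.3% of all genes. By T>C rate 9 of the 10 fell, against 66.9% of all genes. Stc2, a secreted glycoprotein, had 72.5% at 0 min and 2.64% at 150 min and a half-life of 33.3 min, shorter than that of Atf4, and Gadd45a, a growth arrest gene, had 41.5 min. Pmaip1 (NOXA, a cell death activator, 80.1 min) and Map1lc3b (an autophagy protein, 145 min) were the slowest that fell. Fgf21 and Stbd1 were below the read minimum. The most positive slope of total reads in this list was that of Sqstm1, an autophagy receptor (0.06 ± 0.06 log2 per h, edgeR adjusted p = 0.577), and the most negative that of Gdf15 (-1.25 ± 0.24 log2 per h, edgeR adjusted p = 0.0889, DESeq2 adjusted p = 0.00784). These lists were chosen from knowledge of the pathway with earlier results of the same libraries known, and their counts are descriptions of these 6 libraries.

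**Figure D4:**
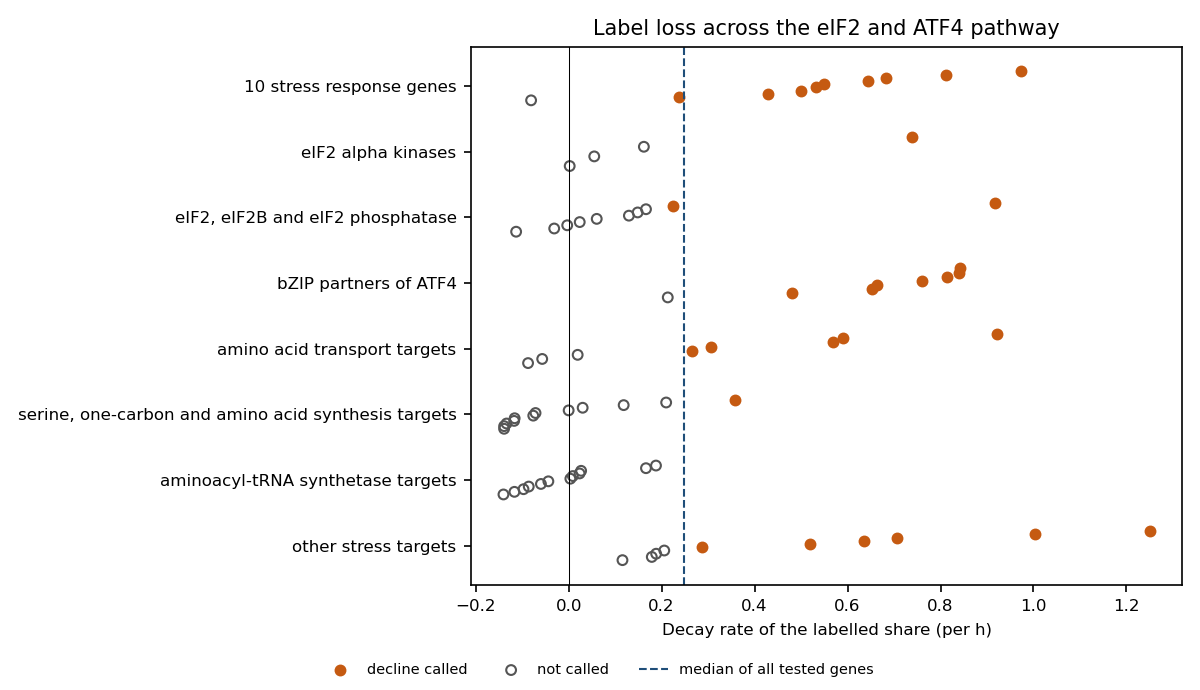
Decay rate of the labelled share (per h) for the 10 stress response genes and for 7 lists of the eIF2 and ATF4 pathway; each point is 1 gene, filled where the decline was called by limma, and the dashed line is the median of all tested genes. Of the synthetase and the amino acid synthesis genes 0 and 1 are filled, against 9 of the 10 stress response genes and 52.3% of all genes tested.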

How the data were processed

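Nuclear RNA from 6 cultures, 1 per washout time, was sequenced as stranded total RNA with paired reads of 81 nt, per the labels' protocols. Reads were aligned with STAR 2.5.2b to mm10, per the submitters' processing notes. The program behind the table of genes, its annotation, its use of strand and the conversion rate behind the labelled fraction were not given in the sources used here. Whether intronic reads were counted was not given either, so unspliced and spliced RNA cannot be told apart in these values. The deposited table holds raw read counts per gene, counts of T>C conversions and covered T positions printed with 4 significant digits, and the labelled fraction of reads as posterior mean, mode and 5% and 95% quantiles, per the file headers. The columns carry a number or none, matched to the minutes of the titles by dropping the ending that all titles share, so every slope rests on that reading. A further 30 columns of model parameters and double conversions were not used.

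Slopes on time were fitted over all genes with limma 3.58.1 (mean of at least 100 reads, fraction above 0 in every library) and, for counts, with edgeR 4.0.16 (TMM, mean of at least 10 reads); DESeq2 1.42.0 was an alternative. The SE of an edgeR slope is the slope over the root of its F statistic. With 1 library per time, 4 residual degrees of freedom remain and p-values measure scatter around a line in time, not a spread between cultures. A half-life is the natural log of 2 over the decay rate; in nuclear RNA, decay and export cannot be told apart. Positions are from GENCODE M21 (same build), which matched 23223 gene IDs. Members and lists were chosen with earlier results of these data known. All 10 members are named; from each list of at least 5 tested genes the text names the genes that fell with the 2 shortest and 2 longest half-lives and those with the extreme slopes in total reads; other list members were chosen after their values were seen.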

Additional observations from a re-analysis of the deposited data

How the results depend on the processing

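No paired analysis was possible because each washout time had 1 library. The count of members with a falling share was 6 to 9 under every alternative except the posterior weights, where it was 1. Leaving out 1 library each gave 8 to 9. Over all genes it gave from 3594 of 11560 (without 150 min) to 6318 of 11405 (without 60 min). The fall in T>C rate held for 7 to 9 members without 1 library each. Over all genes it held for 2643 of 11558 (without 150 min) to 9213 of 11403 (without 60 min). Slopes that differed from the library median were called for 0 to 8 members without 1 library each, against 7 with all. The 8 came without the 60 min library, where 3195 of 11405 genes fell and 4843 rose. For total reads, edgeR called 0 with all libraries, 0 to 2 without 1 library each, 4 when the 30 and 60 min times were swapped and 2 if low counts stayed in, and DESeq2 called 1. With low counts kept in, 225 of all 23281 genes fell and 174 rose. The pair tests called 0 with all libraries and 32 with those times swapped; with 5 or 4 libraries the exact test has fewer orders, and without both the 30 and 60 min libraries its smallest p was 0.0417.

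Some slopes that were not called changed sign. On labelled abundance the slope of the label of Asns was -0.0042 per h. For the slope of total reads (log2 per h), leaving out 1 library each gave -0.048 to 0.021 for Atf4, -0.25 to 0.12 for Atf3, -0.14 to 0.019 for Ppp1r15a and -0.048 to 0.026 for Chac1. For Chac1 it was also 0.011 without both the 30 and 60 min libraries, 0.0012 with DESeq2 and 0.00063 with its size factors in edgeR. The cause of these changes was not tested. Vldlr, Atf3 and Chac1 averaged fewer than 300 reads and could not be fitted at that minimum. Atf3 and Vldlr are limited by 65 to 218 reads per library.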

Other observations

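Gdf15, a secreted stress hormone and ATF4 and p53 target, had the most negative slope of total reads among the listed stress targets (-1.25 ± 0.24 log2 per h, edgeR adjusted p = 0.0889, DESeq2 adjusted p = 0.00784). Its level was 18.6, 14.1, 23.1, 6.85, 3.67 and 2.34 CPM from 0 to 150 min. Unlike those of the 10 stress response genes, its labelled share was lowest at 90 min, with 92.2, 61.0, 83.2, 39.7, 45.4 and 62.1%. No decline of this share was called (limma adjusted p = 0.135), but its raw T>C rate fell (-0.54 ± 0.19 per h, limma adjusted p = 0.0157). The late shares come from the libraries with its lowest levels. Bbc3 (PUMA), a cell death activator, had 25.1, 30.2, 32.2, 20.1, 12.9 and 9.68 CPM (edgeR adjusted p = 0.093, DESeq2 adjusted p = 0.000225), a course like that of Sesn2 and Ddit4, and its share was 95.2% at 0 min and 18.4% at 150 min.

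Among embryonic stem cell markers, 4 of 8 lost label by share and 0 rose by limma, close to the 52.3% of all genes that fell. By T>C rate 5 of the 8 fell, against 66.9% of all genes. Sox2 had a half-life of 37.8 min, Esrrb 60.0 min, Nanog 60.3 min and Zfp42 72.6 min, whereas Pou5f1, another core pluripotency factor, was 15.02% labelled at 0 min and 15.6% at 150 min. No fibroblast feeder marker fell among the 8 tested, by limma on the share or on the T>C rate, and none of the 8 rose. Of all genes, 52.3% fell by share and 66.9% by T>C rate. These genes were named after their values were seen.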
